A study of Homo sapiens with 16 samples.

Results

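The BCL2 family genes described here were BCL2, BCL2L1 and MCL1, which encode survival proteins, BCL2L11, BMF, PMAIP1, BID and BIK, which encode BH3-only proteins, and BAX, an effector. They were chosen by name from a set of 10 family genes, and every probe set that the array annotation paired with 1 of those genes alone was taken. That gave 30 of the 54675 probe sets, for 9 of the 10 genes and out of 19775 genes with a probe set of their own. BCL2L11 had 7 probe sets, MCL1 had 6, BCL2 and BCL2L1 had 4 each, BID had 3, PMAIP1 and BAX had 2 each, and BMF and BIK had 1 each. The only probe set of BBC3, a BH3-only gene, was paired with several genes and was not analysed here. RNA came from SW480, a human colorectal cancer cell line with truncated APC and active beta-catenin, grown in serum-containing medium with added insulin, hydrocortisone and a thioglycerol. The 16 Affymetrix arrays formed 4 groups of 4 replicates, lettered A to D. Control cells (siGFP) stably carried an empty vector and received a control siRNA. siTAZ cells carried the empty vector and received an siRNA against TAZ, a transcriptional co-activator encoded by WWTR1. sibcat cells carried the empty vector and received an siRNA against beta-catenin, the Wnt effector encoded by CTNNB1. APC cells stably carried a vector for wild-type APC, which promotes beta-catenin breakdown, and received the control siRNA. The labels name 1 siRNA condition per target and do not say whether the APC cells are 1 clone or a pool. The design asks how TAZ relates to Wnt signalling in these cells, and the comparisons below show how the genes that control mitochondrial apoptosis differed between the 4 groups.

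BCL2 family proteins decide whether the outer mitochondrial membrane stays intact. Survival members such as BCL2, BCL-XL (from BCL2L1) and MCL1 hold the effectors BAX and BAK in check, and BH3-only proteins oppose the survival members or activate the effectors directly. Activated BAX and BAK open the membrane and release cytochrome c, which starts the caspase cascade. Many of these proteins are also controlled after transcription, by cleavage, phosphorylation or turnover, which RNA levels do not show.

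The labels held for WWTR1 and CTNNB1, and in part for APC. In siTAZ cells the 3 WWTR1 probe sets stood at 8.96% to 13.5% of their control level. In sibcat cells the CTNNB1 probe sets stood at 10.8%, 12.9% and 75.7% of control. In APC cells, 2 of 5 APC probe sets were higher than in control, by 0.41 and 1.11 log2. The first did not pass the limma test in replicates A and B alone (0.35, adjusted p = 0.192). The second averaged 3.96 in control and 5.07 in APC cells, below the median array value of 5.09. Its _x_at suffix marks probes that may bind other transcripts. The brightest APC probe set differed by 0.08 and did not pass. Of 8 colorectal epithelial markers, 7 lay at or above the median array value of 5.09 in every group, and the differentiation marker LGALS4 lay below it in every group. Of 3 leukocyte markers analysed, PTPRC, the defining leukocyte antigen, stood between 3.01 and 3.15. CD3E stood around the median, from 5.035 in sibcat to 5.22 in control cells. CD14 stood at 4.60 in control and 6.24 in sibcat cells. Of 7 fibroblast and endothelial markers, 4 lay below that median in every group and 3 lay above it. The 3′ minus 5′ difference of the ACTB control probe sets, a measure of RNA integrity that grows as RNA degrades, was 2.05 ± 0.16 in control, 2.57 ± 0.39 in siTAZ, 2.30 ± 0.24 in sibcat and 2.08 ± 0.32 in APC cells (log2, SD, n = 4), and in every group replicates A and B lay above C and D. In RNA from a whole culture, a change in every cell and a change in the share of cells expressing a gene cannot be told apart.

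Promoter windows, from 250 bases before to 50 bases after an annotated start, were found for 8 of the 10 genes in RefSeq (GRCh38.p14), 14 windows in all. MCL1 and BIK had no entry. The first window is shown for BCL2L11, BMF, PMAIP1 and BID, the BH3-only genes on which the comparisons below turn. BCL2L11 lies at chr2:111120664-111120963 on the plus strand, BMF at chr15:40108830-40109129 on the minus strand, PMAIP1 at chr18:59899746-59900045 on the plus strand and BID at chr22:17774420-17774719 on the minus strand, each read 5′ to 3′ along its gene. Capitals mark GTAAACA, the core recognised by FOXO factors.
BCL2L11: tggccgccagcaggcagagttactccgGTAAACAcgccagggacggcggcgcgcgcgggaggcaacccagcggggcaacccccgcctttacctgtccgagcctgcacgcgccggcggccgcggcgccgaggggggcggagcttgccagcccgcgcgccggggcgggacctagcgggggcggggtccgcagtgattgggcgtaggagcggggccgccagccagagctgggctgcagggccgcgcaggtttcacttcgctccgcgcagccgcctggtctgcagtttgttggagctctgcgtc
BMF: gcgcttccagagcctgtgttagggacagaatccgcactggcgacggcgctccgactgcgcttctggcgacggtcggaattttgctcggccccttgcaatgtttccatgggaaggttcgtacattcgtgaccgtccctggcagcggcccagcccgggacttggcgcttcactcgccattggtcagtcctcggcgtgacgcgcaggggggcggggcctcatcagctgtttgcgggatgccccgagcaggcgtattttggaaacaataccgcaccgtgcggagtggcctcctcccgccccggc
PMAIP1: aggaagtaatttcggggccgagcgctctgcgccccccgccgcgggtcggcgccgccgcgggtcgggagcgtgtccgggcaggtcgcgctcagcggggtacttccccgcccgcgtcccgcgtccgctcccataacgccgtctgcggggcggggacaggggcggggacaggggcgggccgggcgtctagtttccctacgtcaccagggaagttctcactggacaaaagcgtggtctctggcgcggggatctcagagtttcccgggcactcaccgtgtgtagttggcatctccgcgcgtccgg
BID: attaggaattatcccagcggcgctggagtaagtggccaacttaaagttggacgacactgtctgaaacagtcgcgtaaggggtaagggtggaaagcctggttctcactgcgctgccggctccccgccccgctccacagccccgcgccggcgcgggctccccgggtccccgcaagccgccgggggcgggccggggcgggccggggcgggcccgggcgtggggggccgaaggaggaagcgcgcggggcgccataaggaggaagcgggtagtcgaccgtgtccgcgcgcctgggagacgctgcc
The motifs searched, on both strands and chosen after these sequences had been seen, were GTAAACA (FOXO), GGAATG (TEAD, the partner of TAZ) and CTTTGA (TCF/LEF, the partner of beta-catenin). Over all 35116 RefSeq windows of the same length, GTAAACA was present in 3.42%, GGAATG in 14% and CTTTGA in 12.9%. Among the 14 family windows, GTAAACA was found in 1 (BCL2L11), GGAATG in 1 (BBC3) and CTTTGA in 0. The windows shown for BCL2L11, PMAIP1 and BID were 74.7%, 71.3% and 71.7% G or C, and that of BMF was 65.0%. The other BID windows ran from 48.7% to 78.0%, and the second BMF window was 50.3%. Several BID windows overlap, so the 14 windows are not all separate sequences.

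Against control, RNA of family genes moved in both directions in all 3 treated groups. BMF was higher in siTAZ, sibcat and APC cells, and 2 of 4 BCL2L1 probe sets were lower in all 3. BID was lower in siTAZ cells and higher in sibcat and APC cells, PMAIP1 fell in siTAZ and APC cells, and MCL1 fell in sibcat cells. The brightest BCL2L11 probe set was higher in siTAZ and sibcat cells. In siTAZ cells 15 of 30 member probe sets passed the limma test at an adjusted p under 0.05, against 20.3% of all probe sets. Of these 7 were higher and 8 lower, beside 10.5% and 9.77% of all probe sets. In sibcat cells 13 passed (25.6% of all), 7 higher and 6 lower (13.4% and 12.2% of all). In APC cells 15 passed (24% of all), 8 higher and 7 lower (12.7% and 11.3% of all). Groups did not overlap at 15, 18 and 15 member probe sets in siTAZ, sibcat and APC cells, beside 21.7%, 25.6% and 24.1% of all probe sets. The share is higher among the brightest probe sets of genes, so a closer background is the gene. By that probe set, 6 of 9 members passed in siTAZ cells, 5 in sibcat cells and 5 in APC cells, where 27%, 32.9% and 30.7% of 19775 genes did. Refitted over genes alone, 6 members passed in each, where 30.1%, 35.9% and 33.7% of genes did. The members were chosen with earlier results of these data known, and their brightest probe sets all lay above the median array value. None of these backgrounds is matched for that, so a higher share among members is not a result about the family. The median difference over the 30 probe sets was 0.04 in siTAZ, -0.12 in sibcat and 0.01 in APC cells, beside 0.01, 0.00 and 0.02 over all probe sets. The median size of the difference without its sign was 0.26, 0.25 and 0.24 (log2) for the members and 0.11, 0.13 and 0.13 for all probe sets. The 3 comparisons share the control arrays, so their results are not independent of each other.

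All 43 called differences from control, 15 in siTAZ, 13 in sibcat and 15 in APC cells, kept their direction in replicates A and B alone and in C and D alone. Both subsets are parts of the arrays that gave the calls, so a kept direction is no separate support. The direction was also kept with the ACTB measure as a covariate, though some calls were lost, such as BCL2 203685_at in siTAZ cells (-0.25). The smaller fit on A and B, with 2 arrays a group, passed 7 probe sets in siTAZ and 7 in APC cells.

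**Figure D1:**
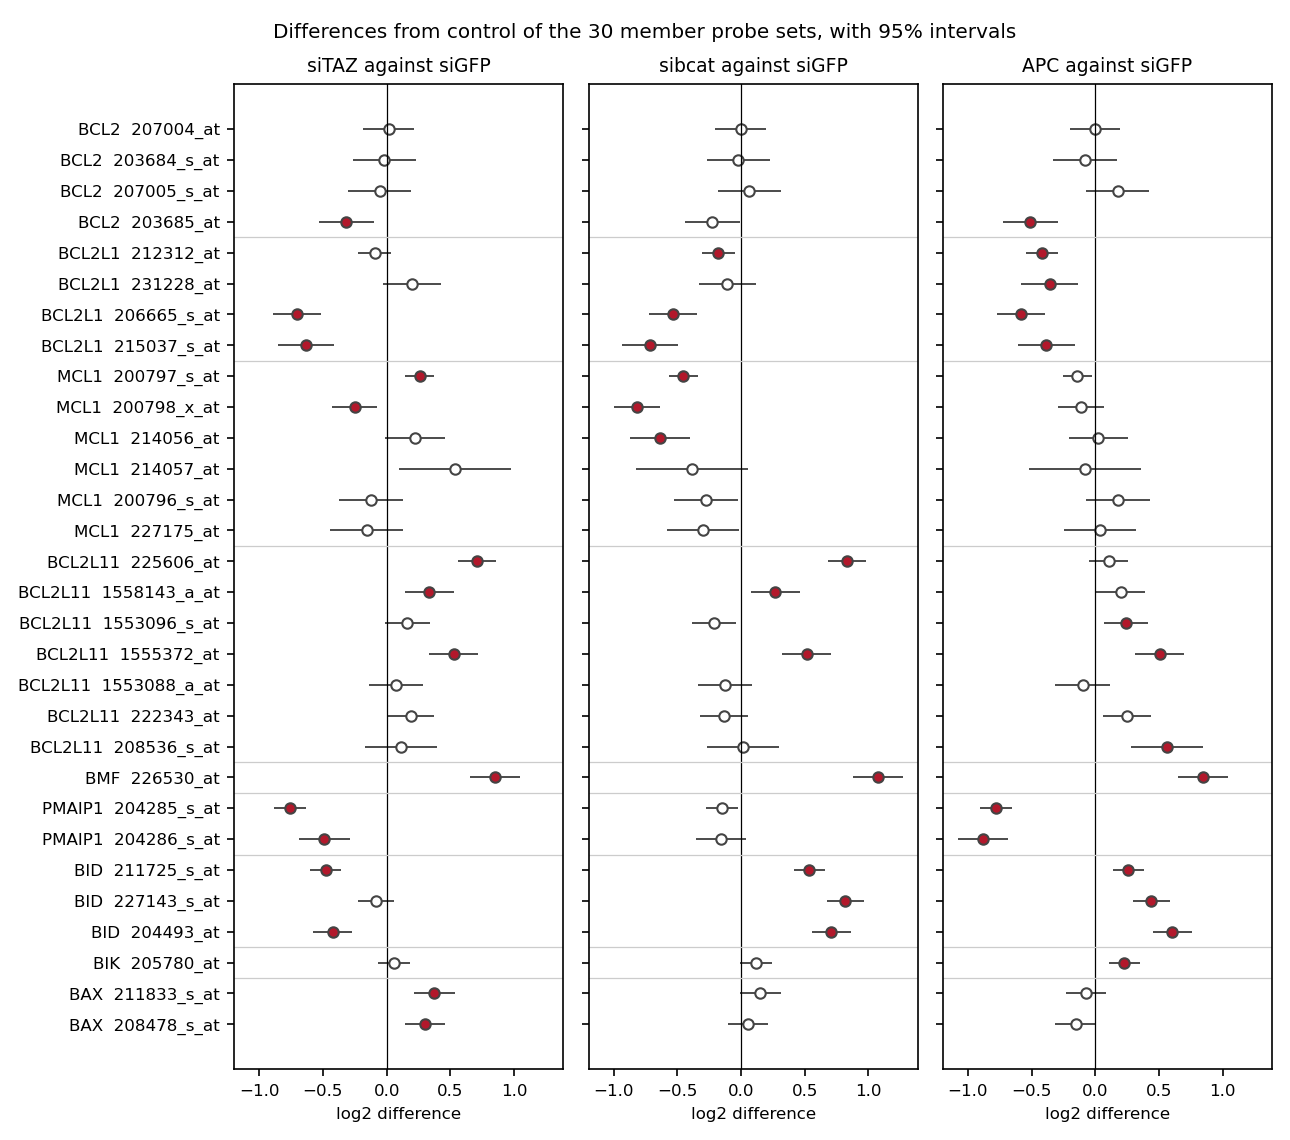
Differences from control (log2, horizontal axis) of the 30 member probe sets in siTAZ, sibcat and APC cells, with 95% intervals from the limma fit. The 3 BID probe sets lie left of 0 in siTAZ cells and right of 0 in the other panels, and BMF lies right of 0 in all 3.

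BMF, a BH3-only protein that is held at the cytoskeleton until released, rose in all 3 treated groups. In control cells its probe set 226530_at stood at 5.59, 5.94, 5.74 and 5.40 in replicates A to D (log2). It stood at 6.52, 6.47, 6.57 and 6.50 in siTAZ cells, at 6.91, 6.71, 6.69 and 6.65 in sibcat cells and at 6.61, 6.51, 6.43 and 6.51 in APC cells. Every treated array lay above every control array, and control arrays spread more widely (SD 0.23) than treated ones (SD 0.04 to 0.12). The difference from control was 0.85 ± 0.09 (SE) in siTAZ cells (1.8-fold, adjusted p = 3.21e-06), 1.07 ± 0.09 in sibcat cells (2.10-fold, adjusted p = 1.15e-07) and 0.85 ± 0.09 in APC cells (1.8-fold, adjusted p = 1.98e-06). The level in sibcat cells was above that in siTAZ and APC cells by 0.23 each, with no overlap of arrays, and neither difference passed (adjusted p = 0.0913 and 0.0800). Both passed when control replicate B or D was left out of the shared fit, with the difference itself unaltered and adjusted p between 0.0323 and 0.0446.

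BCL2L11 encodes BIM, a potent BH3-only protein that binds all major survival members. Its brightest probe set, 225606_at, was higher in both siRNA groups and not called in APC cells. Control arrays stood at 8.33, 8.28, 8.19 and 8.27. The siTAZ arrays stood at 9.0, 8.99, 8.84 and 9.08, the sibcat arrays at 9.12, 9.20, 9.11 and 8.97, and the APC arrays at 8.51, 8.33, 8.39 and 8.26. All siTAZ and sibcat arrays lay above all control and APC arrays, and the APC arrays overlapped those of control. The difference from control was 0.71 ± 0.07 in siTAZ cells (1.64-fold, adjusted p = 1.17e-06), 0.83 ± 0.07 in sibcat cells (1.78-fold, adjusted p = 9.93e-08) and 0.11 in APC cells, with a 95% interval from -0.05 to 0.26 (adjusted p = 0.345). The siTAZ level exceeded the APC level by 0.61 (adjusted p = 2.59e-06), and the APC level lay 0.73 below the sibcat level (adjusted p = 3.14e-07).

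The other BCL2L11 probe sets did not all follow the brightest one. Probe set 1555372_at stood at 6.54, 6.05, 6.40 and 6.45 in control arrays and between 6.74 and 6.99 in all 12 treated arrays. It was higher by 0.53 in siTAZ, 0.52 in sibcat and 0.51 in APC cells (adjusted p = 0.000342, 0.000291 and 0.000384), so here APC cells did not stand apart. The APC difference did not pass in replicates A and B alone (0.51). Probe set 1558143_a_at was higher by 0.34 in siTAZ (adjusted p = 0.0124) and 0.27 in sibcat cells (adjusted p = 0.0356). Its APC difference of 0.20 did not pass. One control array, replicate B at 7.22, stood apart from the others at 6.77 to 6.81. Leaving it out raised the APC difference to 0.31 (adjusted p = 0.00358). The sibcat call was lost when control A, C or D or sibcat A, C or D was left out, with values of 0.23 to 0.27. Neither siRNA difference passed in replicates A and B alone, at 0.17 and 0.13. In APC cells, 1553096_s_at was higher by 0.24 (adjusted p = 0.0415), a call lost on leaving out any of 8 arrays, namely control B, C or D, siTAZ A or B, sibcat C, or APC B or D (0.18 to 0.25). The dim probe set 208536_s_at, below the median array value in every group, was higher in APC cells by 0.57 (adjusted p = 0.00414). Probe set 222343_at missed the threshold in APC cells (0.25, adjusted p = 0.0528) and passed with the replicate block (adjusted p = 0.0161). On leaving out sibcat A or B from the shared fit it also passed (adjusted p = 0.0112 to 0.0465), and without sibcat A its sibcat difference of -0.14 became -0.24 (adjusted p = 0.0243). In sibcat cells 1553096_s_at lay below control by 0.21, opposite to 225606_at and with no overlap of arrays, and did not pass (adjusted p = 0.0761). It did pass with the ACTB covariate (-0.24, adjusted p = 0.0448), with array weights (-0.26, adjusted p = 0.0205) and with the filter on dim probe sets (adjusted p = 0.0378). The remaining probe set, 1553088_a_at, passed in no comparison.

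Between treated groups the BCL2L11 probe sets also differed in direction. Against sibcat cells APC cells were lower at 225606_at, as given above, and higher at 1553096_s_at (0.45, adjusted p = 0.000306), 222343_at (0.38, adjusted p = 0.00253) and the dim 208536_s_at (0.55, adjusted p = 0.00346). The siTAZ level exceeded the sibcat level by 0.37 at 1553096_s_at (adjusted p = 0.00212) and by 0.32 at 222343_at (adjusted p = 0.0106). It lay below the APC level at 208536_s_at by 0.45 (adjusted p = 0.0142), a call lost without APC A (-0.36). None of these differences at 1553096_s_at, 222343_at and 208536_s_at passed in replicates A and B alone, where they ran from 0.26 to 0.36 against sibcat cells and stood at -0.28 between siTAZ and APC cells.

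**Figure D2:**
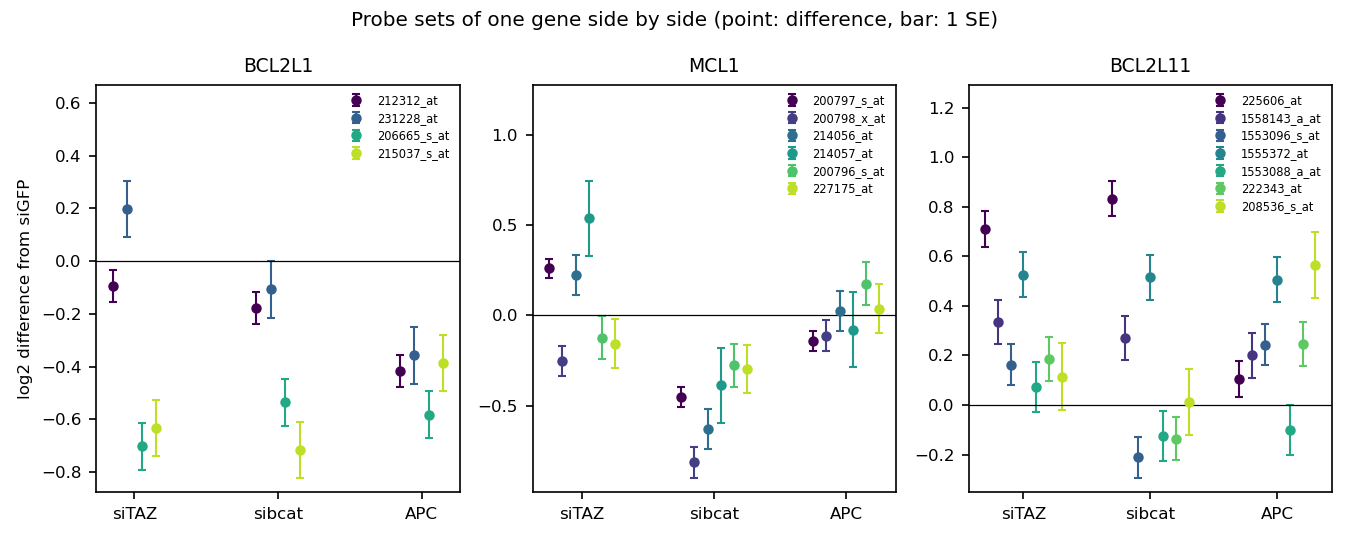
Differences from control (log2, vertical axis) for the probe sets of BCL2L1, MCL1 and BCL2L11, with bars of 1 SE, in siTAZ, sibcat and APC cells. For BCL2L11, 225606_at is near 0 in APC cells (0.11) while 1555372_at is near 0.51 in all 3 groups.

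BID links death receptors to mitochondria, since caspase cleavage turns it into an activator of BAX and BAK. Its RNA was lower than control in siTAZ cells and higher in sibcat and APC cells. The brightest probe set, 211725_s_at, stood at 9.77, 9.66, 9.65 and 9.60 in control arrays. The siTAZ arrays stood at 9.21, 9.25, 9.18 and 9.13, the sibcat arrays at 10.23, 10.21, 10.18 and 10.20, and the APC arrays at 10.01, 9.93, 9.96 and 9.82. No group overlapped another, and the order was siTAZ, control, APC and sibcat from low to high. It fell by 0.48 ± 0.06 in siTAZ cells (71.8% of control, adjusted p = 9.62e-06), rose by 0.54 ± 0.06 in sibcat cells (1.45-fold, adjusted p = 1.60e-06) and rose by 0.26 ± 0.06 in APC cells (1.20-fold, adjusted p = 0.00264). Probe set 204493_at ran the same way, at -0.42, 0.71 and 0.60 (adjusted p = 0.000322, 7.82e-07 and 5.57e-06). Probe set 227143_s_at was 0.82 higher in sibcat and 0.44 higher in APC cells (adjusted p = 6.21e-08 and 8.47e-05), and its siTAZ difference of -0.08 (95% interval -0.23 to 0.06) did not pass. The siRNA groups lay farther from each other than from control. The siTAZ levels lay below the sibcat levels by 1.01, 0.90 and 1.13 for 211725_s_at, 227143_s_at and 204493_at (adjusted p = 4.13e-10, 1.38e-08 and 1.69e-09), and below the APC levels by 0.74, 0.52 and 1.03. APC cells lay below sibcat cells by 0.28 and 0.38 at 211725_s_at and 227143_s_at (adjusted p = 0.00113 and 0.000241), and by 0.11 at 204493_at, which did not pass. In replicates A and B alone, 204493_at in siTAZ cells (-0.34) and 211725_s_at in APC cells (0.26) did not pass.

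PMAIP1 encodes NOXA, a BH3-only protein that binds MCL1 in particular and promotes its turnover. Its RNA fell in siTAZ and APC cells and did not pass the test in sibcat cells. Probe set 204285_s_at stood at 10.37, 10.39, 10.34 and 10.52 in control arrays. The siTAZ arrays stood at 9.61, 9.71, 9.67 and 9.60, the APC arrays at 9.69, 9.65, 9.59 and 9.58, and the sibcat arrays at 10.22, 10.19, 10.29 and 10.33. The siTAZ and APC arrays overlapped each other and lay below all control and sibcat arrays. The difference from control was -0.76 ± 0.06 in siTAZ cells (59.2% of control, adjusted p = 5.58e-08) and -0.78 ± 0.06 in APC cells (58.3% of control, adjusted p = 1.80e-08). In sibcat cells it was -0.15 (adjusted p = 0.0806). That sibcat difference passed with only probe sets at or above the median level (adjusted p = 0.0260), with a trended and robust prior (0.0263) and with 1 probe set per gene (0.0402). The siTAZ and APC levels differed by 0.02, with a 95% interval from -0.10 to 0.14. The other probe set, 204286_s_at, differed by -0.49 in siTAZ (adjusted p = 0.000888), by -0.88 in APC (adjusted p = 1.36e-06) and by -0.16 in sibcat cells (adjusted p = 0.272). On this probe set APC cells lay below siTAZ cells, by 0.39 (adjusted p = 0.00325). Its siTAZ difference in replicates A and B alone was -0.43 and did not pass.

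BIK, a BH3-only protein of the endoplasmic reticulum and mitochondria, differed little between groups. Its probe set 205780_at stood at 11.26, 11.33, 11.13 and 11.13 in control and at 11.50, 11.47, 11.38 and 11.41 in APC arrays, without overlap. It rose by 0.23 in APC cells (1.17-fold, adjusted p = 0.00763), and with replicates A and B alone the difference was 0.19 and did not pass. The siTAZ difference was 0.06 and the sibcat difference 0.12, and neither passed (adjusted p = 0.602 and 0.173).

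**Figure D3:**
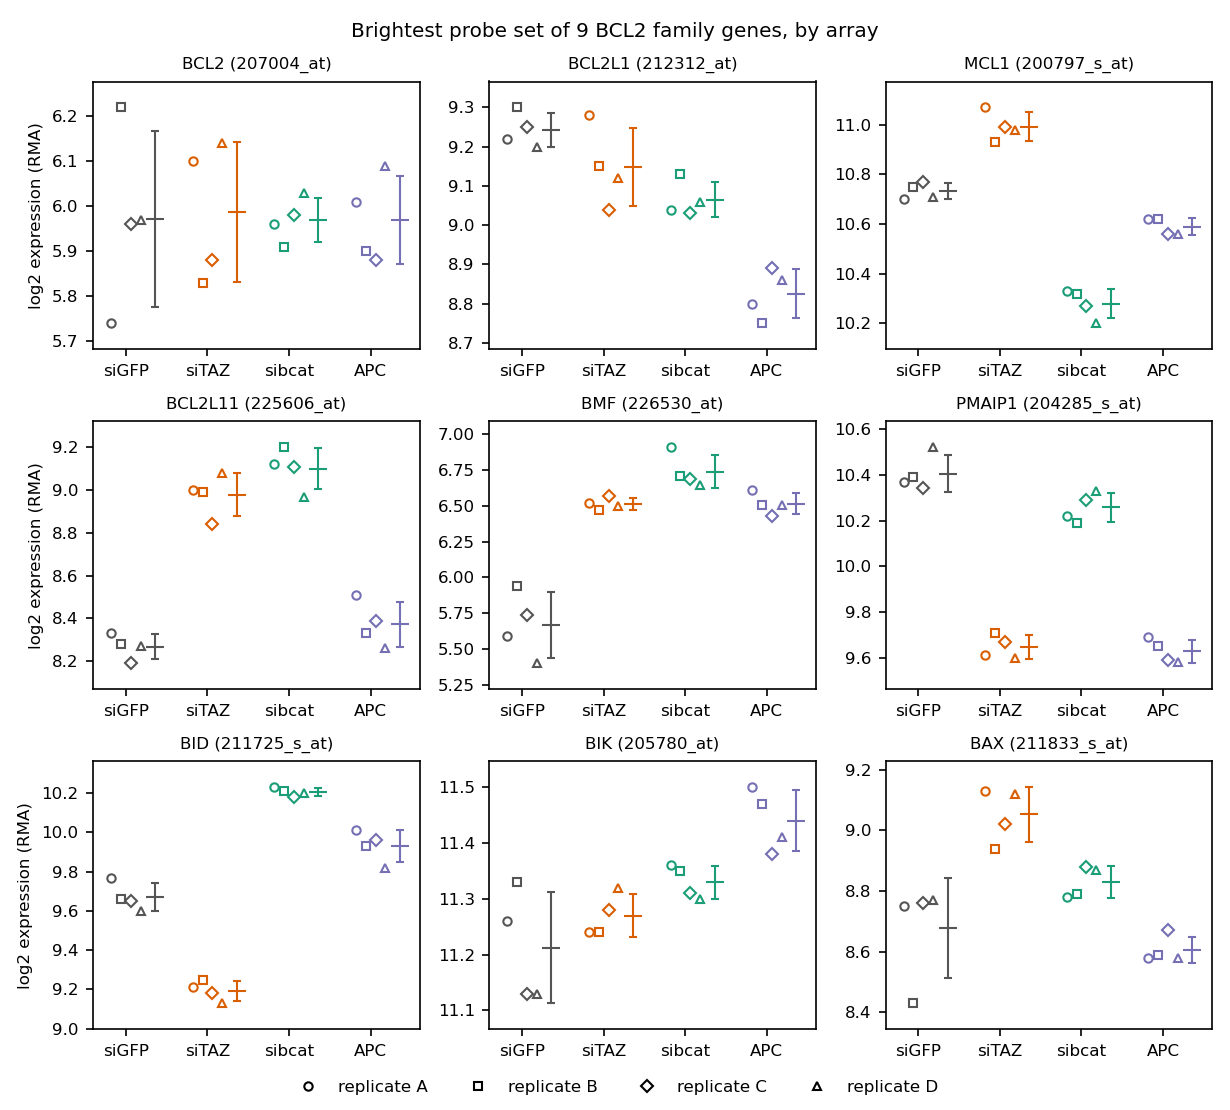
Level of the brightest probe set of each of the 9 genes (log2 RMA value, vertical axis) on each array, by group, with a marker for each replicate letter. The 4 groups are separate at BID, the 4 control arrays lie lowest at BMF, and the siTAZ and APC arrays lie together below the others at PMAIP1.

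Among the survival genes, BCL2L1, which encodes BCL-XL, was lower in all 3 treated groups on part of its probe sets. Probe set 206665_s_at stood at 6.65, 6.62, 6.41 and 6.46 in control arrays, at 6.0, 5.94, 5.74 and 5.65 in siTAZ, at 6.10, 5.99, 5.94 and 5.97 in sibcat and at 6.13, 5.89, 5.82 and 5.97 in APC arrays. Every treated array lay below every control array, and the treated groups overlapped one another. It fell by 0.70 in siTAZ, 0.54 in sibcat and 0.58 in APC cells (adjusted p = 1.44e-05, 0.000162 and 7.42e-05). Probe set 215037_s_at fell by 0.63, 0.72 and 0.39 in the same order (adjusted p = 0.000247, 4.92e-05 and 0.0117), and its APC difference with replicates A and B alone was -0.46, which did not pass. The brightest probe set, 212312_at, gave a different picture. It stood at 9.22, 9.30, 9.25 and 9.20 in control and at 8.80, 8.75, 8.89 and 8.86 in APC arrays. APC arrays lay below all others, and the fall was 0.42 (74.9% of control, adjusted p = 4.42e-05). Its difference was -0.10 in siTAZ cells (adjusted p = 0.344) and -0.18 in sibcat cells (adjusted p = 0.0389). The sibcat call was lost on leaving out control A, B or C or sibcat A, C or D (-0.19 to -0.16). Probe set 231228_at was called in APC cells (-0.36, adjusted p = 0.0200). It lost the call without control B, APC B or APC D (-0.33 to -0.29) and with replicates A and B alone (-0.44) or C and D alone (-0.28). Its siTAZ difference was 0.20, opposite to the falling probe sets, and did not pass (adjusted p = 0.244).

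MCL1, a short-lived survival protein, fell in sibcat cells and went the other way in siTAZ cells on its brightest probe set. Probe set 200797_s_at stood at 10.70, 10.75, 10.77 and 10.71 in control arrays. The siTAZ arrays stood at 11.07, 10.93, 10.99 and 10.98, the sibcat arrays at 10.33, 10.32, 10.27 and 10.20, and the APC arrays at 10.62, 10.62, 10.56 and 10.56. The 4 groups did not overlap. The level rose by 0.26 ± 0.05 in siTAZ cells (1.20-fold, adjusted p = 0.00164) and fell by 0.45 ± 0.05 in sibcat cells (73.1% of control, adjusted p = 4.41e-06). In APC cells it was -0.14 (adjusted p = 0.0651). The APC difference passed under 5 alternatives, among them the ACTB covariate (adjusted p = 0.0364) and the trended and robust prior (adjusted p = 0.0116). The siTAZ difference with replicates A and B alone was 0.28 and did not pass.

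The other 5 MCL1 probe sets also lay below control in sibcat cells, and 2 of them passed the test. Probe set 200798_x_at fell by 0.82 (56.8% of control, adjusted p = 9.70e-07) and 214056_at by 0.63 (adjusted p = 0.000296), and the latter did not pass with replicates C and D alone (-0.58). The suffix of 200798_x_at marks probes that may bind other transcripts. In siTAZ cells this probe set was lower by 0.25 (adjusted p = 0.0434), opposite to the brightest one. That call was lost on leaving out control B, C or D or siTAZ A, B or C (-0.26 to -0.22), with quantile normalization applied again (-0.20) and with the ACTB measure as a covariate (-0.07, adjusted p = 0.581). Probe set 214057_at stood at 5.36, 5.90, 6.67 and 5.40 in siTAZ arrays, with replicate C high, and at 5.48, 5.52, 5.16 and 5.02 in control arrays. Its difference of 0.54 did not pass (adjusted p = 0.0839), but did so without siTAZ A or D (0.68 to 0.70, adjusted p = 0.0271 to 0.0329). The siTAZ difference of 214056_at, 0.23, passed without siTAZ D (0.32, adjusted p = 0.0452). In sibcat cells 214057_at was at -0.39 and 200796_s_at at -0.28, and neither passed. They passed without siTAZ C (-0.39, adjusted p = 0.0316) and without control B (-0.39, adjusted p = 0.0108) respectively. The dim probe set 227175_at stood at 4.44, 4.29, 4.36 and 4.20 in control and at 3.98, 4.15, 4.03 and 3.94 in sibcat arrays. The arrays did not overlap, and the difference of -0.30 did not pass (adjusted p = 0.129), but did so with only those 2 groups in the fit (adjusted p = 0.0167).

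BCL2, the founding survival member, had 1 probe set above the median array value and 3 below it in every group. Its brightest probe set, 207004_at, stood at 5.74, 6.22, 5.96 and 5.97 in control arrays and between 5.83 and 6.14 in all treated arrays. The groups overlapped, and the differences from control were 0.02 in siTAZ, -0.0025 in sibcat and -0.0025 in APC cells, each with a 95% interval within -0.20 to 0.21. Of the 3 dim probe sets, 203685_at was lower by 0.51 in APC (adjusted p = 0.00105) and by 0.32 in siTAZ cells (adjusted p = 0.0350). The siTAZ call was lost without control A, C or D or siTAZ B or C (-0.33 to -0.24), and with the ACTB covariate (-0.25). The other dim probe sets, 203684_s_at and 207005_s_at, passed in none of the 6 comparisons. In replicates A and B alone 203685_at did not pass, at -0.57 in APC and -0.37 in siTAZ cells.

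BAX, the effector that forms pores in the mitochondrial membrane, rose in siTAZ cells on both of its probe sets and did not pass the test in sibcat or APC cells. Probe set 211833_s_at stood at 8.75, 8.43, 8.76 and 8.77 in control, 9.13, 8.94, 9.02 and 9.12 in siTAZ, 8.78, 8.79, 8.88 and 8.87 in sibcat and 8.58, 8.59, 8.67 and 8.58 in APC arrays. Every siTAZ array lay above every other array, and control replicate B lay below the other control arrays. The level rose by 0.38 ± 0.08 in siTAZ cells (1.30-fold, adjusted p = 0.00134). It differed by 0.15 in sibcat and -0.07 in APC cells, neither of which passed. Probe set 208478_s_at rose by 0.30 in siTAZ cells (adjusted p = 0.00726), with 0.06 in sibcat and -0.16 in APC cells. Set against APC cells directly, the siTAZ level was higher by 0.45 and 0.46 (adjusted p = 0.000131 and 0.000102). Against sibcat cells it was higher by 0.22 and 0.25 (adjusted p = 0.0364 and 0.0204). The first was lost without siTAZ A, C or D or sibcat A, B or D (0.20 to 0.24), the second without siTAZ D or sibcat A or B (0.20 to 0.23). With replicates A and B alone the siTAZ differences from control were 0.45 and 0.28 and did not pass.

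The treated groups were also compared with each other, where control arrays enter only through the shared estimate of the spread. Between siTAZ and sibcat cells 14 member probe sets passed, beside 26.7% of all. In siTAZ cells 9 of them were higher and 5 lower (12.8% and 13.9% of all). Between APC and sibcat cells 17 passed, beside 31.5% of all, 8 higher in APC and 9 lower (16% and 15.6% of all). Between siTAZ and APC cells 13 passed, beside 32.4% of all, 8 higher in siTAZ and 5 lower (15.5% and 16.9% of all). Groups did not overlap at 12, 17 and 12 member probe sets in that order, beside 27.8%, 31.1% and 32.1% of all. By the brightest probe set of each gene, 4, 6 and 6 of 9 members passed, where 34.1%, 39.4% and 40% of genes did. Refitted over genes alone the counts were also 4, 6 and 6, beside 36.7%, 42% and 42.4% of genes. The brightest MCL1 probe set was lowest in sibcat cells and also differed between siTAZ and APC cells. It was 0.71 higher in siTAZ than in sibcat cells (adjusted p = 1.39e-08) and 0.31 higher in APC than in sibcat cells (adjusted p = 0.000176). Its siTAZ level exceeded the APC level by 0.40 (adjusted p = 1.02e-05). Of the 6 MCL1 probe sets, 4 were higher in siTAZ than in sibcat cells and 4 were higher in APC than in sibcat cells. Between siTAZ and APC cells 2 passed, the brightest and 214057_at (0.62, adjusted p = 0.0295). The latter call was lost without siTAZ B or C or APC A or C (0.34 to 0.63). PMAIP1 204285_s_at was lower than in sibcat cells by 0.61 in siTAZ and by 0.63 in APC cells (adjusted p = 3.23e-07 and 1.70e-07). BCL2L1 212312_at was lower in APC cells than in sibcat cells by 0.24 (adjusted p = 0.00475) and higher in siTAZ than in APC cells by 0.32 (adjusted p = 0.000373). The first call was lost in replicates A and B alone (-0.31) and in C and D alone (-0.17), the second in C and D alone (0.205). BCL2L1 215037_s_at ran the other way between APC and sibcat cells, with APC cells higher by 0.33 (adjusted p = 0.0227). That call was lost without sibcat B, sibcat D or APC A (0.25 to 0.29) and in replicates A and B alone (0.35). BCL2L1 231228_at was higher in siTAZ than in APC cells by 0.555 (adjusted p = 0.000469). It was also higher in siTAZ than in sibcat cells, by 0.305 (adjusted p = 0.0425). The latter call was lost on leaving out any of 8 arrays (0.23 to 0.325) and with the ACTB covariate (0.22). BAX 211833_s_at and 208478_s_at were lower in APC than in sibcat cells by 0.23 and 0.21 (adjusted p = 0.0295 and 0.0405). The first of these calls was lost without sibcat C or D or APC A, B or D (-0.22 to -0.21), and the second without sibcat A, C or D or APC A, B or D (-0.22 to -0.17). BIK was lower in siTAZ than in APC cells by 0.17 (adjusted p = 0.0331), a call lost without siTAZ A, B or C or APC A or B (-0.17 to -0.15).

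The replicate letters shared some variation, and a replicate block added member calls in these comparisons. With the block, BCL2L1 215037_s_at was lower in siTAZ than in APC cells (-0.25, adjusted p = 0.0117) and 231228_at lower in APC than in sibcat cells (-0.25, adjusted p = 0.0386). MCL1 200798_x_at (-0.14, adjusted p = 0.0439) and 200796_s_at (-0.30, adjusted p = 0.0408) were then lower in siTAZ than in APC cells. None of these 4 passed in the fit of all arrays without a block. Under other alternatives, 215037_s_at also passed with the ACTB covariate (-0.38), without siTAZ A (-0.33) and in C and D alone (-0.31). Probe set 231228_at did so without sibcat C or APC A (-0.32), and 200796_s_at with only those 2 groups in the fit (adjusted p = 0.0336) or without control B, control D or siTAZ D (-0.37 to -0.30). With a term that set A and B apart from C and D, 231228_at and 200798_x_at passed (adjusted p = 0.0391 and 0.0343).

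Beyond the 9 members, 43 other genes of mitochondrial apoptosis were listed by role, and 39 were tested on their brightest probe set. In siTAZ cells 10 were higher and 4 lower, or 35.9% of those tested, in sibcat cells 9 and 11, or 51.3%, and in APC cells 8 and 6, or 35.9%. The corresponding backgrounds were the 27%, 32.9% and 30.7% of all genes given above. The medians were 0.03, -0.04 and 0.01.

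Of 15 other BCL2 family genes, 3 were higher and 2 lower in siTAZ, 3 and 3 in sibcat, and 3 and 4 in APC cells. BCL2L15, a family gene expressed in the gastrointestinal tract, fell in all 3, from 10.63 in control to 10.07 in siTAZ (-0.57, adjusted p = 1.64e-05), 8.12 in sibcat (-2.52, adjusted p = 1.56e-13) and 8.61 in APC cells (-2.02, adjusted p = 7.47e-13). BCL2L2, which encodes the survival protein BCL-W, fell by 0.29, 0.60 and 0.28 in siTAZ, sibcat and APC cells (adjusted p = 0.000827, 1.90e-07 and 0.000986). BAK1 encodes the effector that acts beside BAX. Its siTAZ level was 0.46 above control (adjusted p = 0.000225), its sibcat level 0.32 above (adjusted p = 0.00366) and its APC level 0.23 above (adjusted p = 0.0352). The APC call was lost without control A or C or APC B, C or D (0.18 to 0.23) and with arrays centred on their median (0.22). In sibcat cells BOK, another BAX-like gene, fell by 0.70 and BAD, a BH3-only gene, rose by 0.41 (adjusted p = 2.73e-06 and 0.000551). BOK was also lower in APC cells, by 0.27 (adjusted p = 0.0206), a call lost without control D or APC A (-0.24 to -0.22). BNIP3L, a mitophagy receptor, rose by 0.45 in sibcat cells while in APC cells it fell by 0.98 (adjusted p = 0.000277 and 3.58e-08). Its siTAZ difference of 0.23 was called (adjusted p = 0.0481) and lost the call on leaving out any array other than control C, APC A or APC C (0.16 to 0.25). BCL2L12 rose by 0.39 in siTAZ and 0.35 in APC cells (adjusted p = 0.000325 and 0.000616). BCL2A1, a survival gene, was higher by 0.37 in APC cells (adjusted p = 0.0223), at a level of 2.61 in control and 2.98 in APC cells, far below the median array value, and the call was lost without control B or APC C (0.28 to 0.31).

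Of 13 regulators of the family, 5 were higher and 1 lower in siTAZ, 3 and 6 in sibcat, and 2 and 1 in APC cells. FBXW7, the ubiquitin ligase subunit that targets MCL1 among other proteins, rose by 0.90 in siTAZ cells (adjusted p = 6.48e-05). FOXO1, a FOXO transcription factor, rose by 0.75 in siTAZ and 0.54 in sibcat cells (adjusted p = 2.89e-05 and 0.000563). Its APC difference of 0.27 did not pass (adjusted p = 0.0621) but did with the replicate block (adjusted p = 0.0308). BAG1, a co-chaperone that binds BCL2, rose by 0.45 in siTAZ and 0.30 in sibcat cells (adjusted p = 4.65e-05 and 0.00158). VDAC2, a mitochondrial channel that binds BAK, fell by 0.23 in siTAZ and 0.35 in sibcat cells (adjusted p = 0.00585 and 9.97e-05). FOXO3, another FOXO factor, was higher by 0.29 in siTAZ cells (adjusted p = 0.000842) and lower by 0.59 in sibcat cells (adjusted p = 2.80e-07). Whether either FOXO factor acts on BCL2L11 in these cells was not tested. DDIT3, the stress-response factor CHOP, fell from 8.64 in control to 7.02 in APC cells (-1.61, adjusted p = 4.82e-11), and by 0.55 to 8.09 in sibcat cells (adjusted p = 3.47e-05).

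Of 6 inhibitors of apoptosis and their antagonists, 2 were higher and 0 lower in siTAZ, 2 and 1 in sibcat, and 3 and 0 in APC cells. BIRC2, a ubiquitin ligase that restrains cell death, rose by 0.41 in siTAZ and 0.69 in sibcat cells (adjusted p = 0.00239 and 1.07e-05). BIRC6 rose by 0.28 in siTAZ and 0.36 in sibcat cells (adjusted p = 0.00418 and 0.000420). BIRC5, which encodes survivin, a protein of mitosis as well as survival, was lower in sibcat cells by 0.55 (adjusted p = 3.45e-05) and higher in APC cells by 0.48 (adjusted p = 0.000163). HTRA2, a mitochondrial protease released with cytochrome c, rose by 0.22 in APC cells (adjusted p = 0.00613). Of 5 apoptosome and caspase genes, 0 were higher and 1 lower in siTAZ, 1 and 1 in sibcat, and 0 and 1 in APC cells. CYCS, which encodes cytochrome c, fell by 0.22 in siTAZ cells (adjusted p = 0.0125), a call lost with only those 2 groups in the fit and with the ACTB covariate (-0.20). In sibcat cells it fell by 0.29 (adjusted p = 0.00097). CASP2, an initiator caspase, fell by 0.28 in APC cells (adjusted p = 0.00373). In replicates A and B alone, BAK1 (0.39), BCL2L2 (-0.32), VDAC2 (-0.27), CYCS (-0.13), FOXO3 (0.29), BIRC6 (0.37) and BNIP3L (0.30) in siTAZ cells, BAK1 (0.30), BAG1 (0.22) and CYCS (-0.23) in sibcat cells, and BAK1 (0.15), BOK (-0.23), BCL2L2 (-0.29), BCL2A1 (0.33), BCL2L12 (0.35), HTRA2 (0.24) and CASP2 (-0.24) in APC cells did not pass. The same held in C and D alone for BCL2L2 (-0.26), VDAC2 (-0.18), BIRC6 (0.20) and BNIP3L (0.16) in siTAZ cells and for BCL2A1 (0.41) and HTRA2 (0.21) in APC cells.

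**Figure D4:**
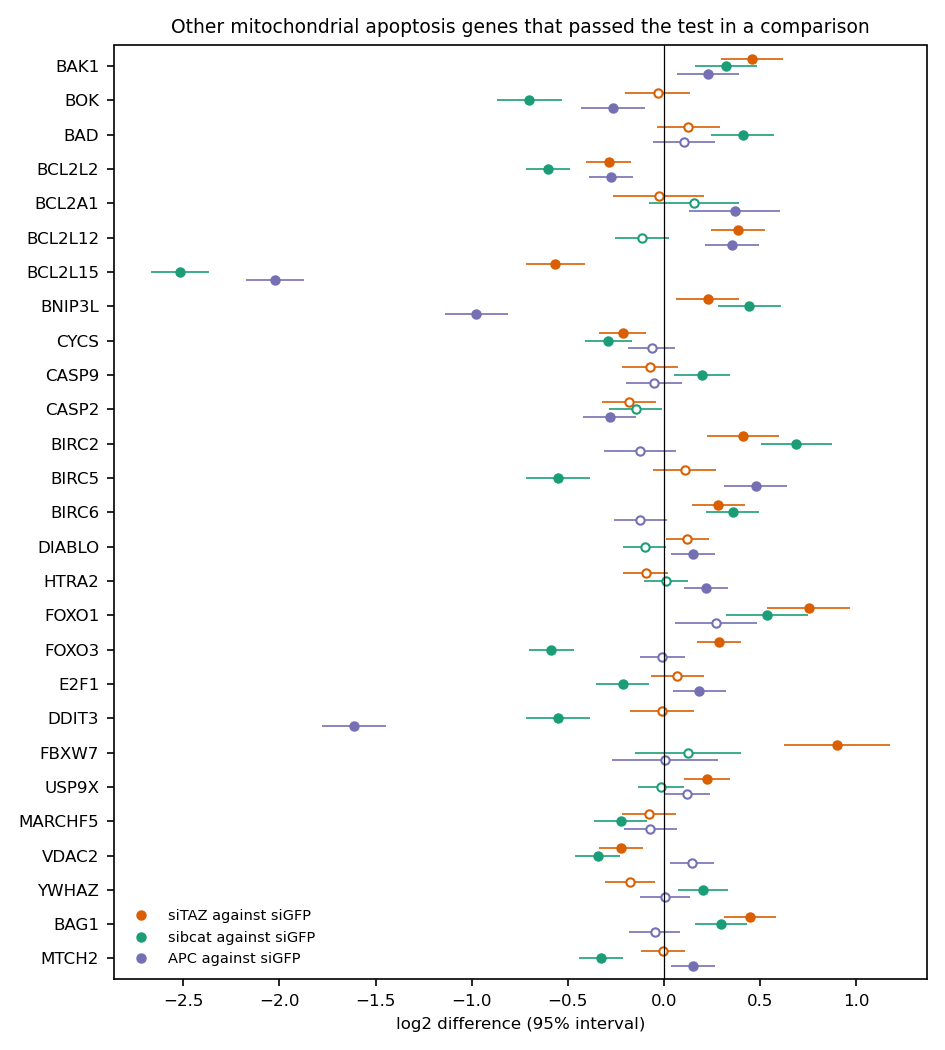
Differences from control (log2, horizontal axis, 95% intervals) in siTAZ, sibcat and APC cells for the 27 of 39 other mitochondrial apoptosis genes that passed the test in a comparison with control, with filled points where they passed. BCL2L15 lies farthest left, at -2.52 in sibcat and -2.02 in APC cells, and DDIT3 lies at -1.61 in APC cells.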

How the data were processed

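RNA of 16 SW480 samples was measured on Affymetrix U133 Plus 2.0 arrays, 4 per group. The authors deposited 1 table of log2 expression values per probe set, made with RMA, per the submitters' processing notes, which give no version. Values ran from 1.8 to 14.56, and the log base was read from that range, since the labels do not state it; every fold and percent given rests on it. RMA makes the arrays' distributions alike, which hides any change in total RNA. Precision is limited by the number of arrays. Separate cultures are not named for the biological replicates, so p-values measure only how far these samples spread, and that spread may be technical.

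Of 54675 probe sets, 41097 were paired with 1 gene by the platform annotation, 1801 with several and 11777 with none. All probe sets and all 16 arrays entered 1 model in limma 3.58.1 (R 4.3.3), with no filter on dim values and no block. Calls used p-values adjusted by Benjamini-Hochberg in each of 6 comparisons, with a threshold of 0.05. Figures were drawn with matplotlib 3.10.9.

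Arrays of the same replicate letter shared some variation. Deviations from the group means correlated at over 0.1 in all 24 pairs of same-letter arrays from different groups (r 0.122 to 0.404). For 8 of 16 arrays, the mean correlation with arrays of the other groups was highest for their own letter. Whether this reflects pairing or the split of A and B from C and D in the ACTB measure was not tested. A fit with the letters as a replicate block was therefore an alternative, beside those given in the closing section.

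All member probe sets were named. Of the other listed genes, up to 5 called in each direction with the largest change were named per comparison with control, each with its value in every such comparison where it was called, and WWTR1, CTNNB1 and APC were label checks. Genes were represented there by their brightest probe set. The members and lists were chosen with earlier results of these data known.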

Additional observations from a re-analysis of the deposited data

Results flagged for a closer look

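For each member probe set and group of 4 arrays, the gap between the highest or lowest array and its nearest neighbour was compared with the group's range. Of 120 such groups 9 had an array farther out than Dixon's 95% limit, and chance gives about 1 in 20. BCL2 203684_s_at, which is dim, was low in replicate D of control (4.63, others 4.98 to 5.05) and in replicate D of siTAZ cells (4.54, others 4.96 to 5.04). MCL1 214057_at was low in APC replicate C (5.03, others 5.25 to 5.29). MCL1 200796_s_at was high in siTAZ replicate D (5.24, others 4.93 to 4.96) and in APC replicate A (5.53, others 5.22 to 5.27). BCL2L11 1558143_a_at was high in control replicate B (7.22, others 6.77 to 6.81) and low in siTAZ replicate A (7.07, others 7.28 to 7.30). BAX 211833_s_at was low in control replicate B (8.43, others 8.75 to 8.77) and high in APC replicate C (8.67, others 8.58 to 8.59).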

How the results depend on the processing

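Each member difference was recomputed under 29 alternatives, 16 that left out 1 array and 13 others. Of 5052 values, 4833 kept their side of the threshold, 155 lost the call and 64 gained one. Of 4296 values for the other named and listed genes, 4061 kept their side, 155 lost the call and 80 gained one. In both sets, 0 values reversed direction where the main or the recomputed value was called. Values called in neither fit could change sign and still count as kept. An example is BCL2 207004_at in siTAZ cells (0.015, and -0.015 in A and B alone). Leaving out 1 array moved the number of called member probe sets between 13 and 17 in siTAZ, 11 and 14 in sibcat and 13 and 16 in APC cells against control, between 11 and 15 for siTAZ against sibcat, 13 and 18 for APC against sibcat and 10 and 15 for siTAZ against APC cells. With replicates A and B alone, with fewer arrays, the counts were 7 for siTAZ and 7 for APC cells against control, 8 for siTAZ against sibcat and 7 for APC against sibcat cells. With the brightest probe set per gene fitted over genes, 6, 6 and 6 of 9 genes passed for siTAZ, sibcat and APC cells against control, 4 for siTAZ against sibcat, 6 for APC against sibcat and 6 for siTAZ against APC cells. The replicate block changed 5 member calls, all given above and all towards passing (for example BCL2L11 222343_at in APC cells, adjusted p = 0.0161), and no other member call; it changed 9 calls among the other genes. Probe sets below the median array value have signals that may be largely background, so their differences are uncertain in size.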
